A study of Mus musculus with 71 samples.

Results

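Polycomb repressive complexes 1 and 2 (PRC1 and PRC2) bind the genes of several of their own subunits. The genes described here were Bmi1, Rybp, Yaf2, Kdm2b and Bcor, which encode subunits of PRC1, and Suz12, Phf19, Aebp2 and Epop, which encode subunits of PRC2. A gene was measured wherever an interval that the authors' annotation assigned to it had its centre within 10 kb of the transcription start. Where a table held several such intervals, the one with the highest mean over its libraries gave the gene's value. All 9 genes had at least 1 interval, with 107 intervals among 72567 in the 9 tables used.

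The cells were mouse J1 embryonic stem cells (ESC) with CBX7 in the CaPS form, in the mCaPS form or as wild type (WT), per the labels, or cells derived from these lines. Through the chromodomain of CBX7, canonical PRC1 binds histone H3 methylated by PRC2, and the series title describes the introduced stretch as a Polycomb domain of committed cells. ESC grew on mouse embryonic feeder fibroblasts with LIF, neural progenitor cells (NPC) were made from aggregates with retinoic acid and taken at day 6 and day 8, and embryoid bodies (EB) grew from hanging drops and were taken at day 10. What mCaPS stands for and whether each line is 1 clone are not given in the sources used here, and CBX7 knockout libraries were not analysed here. The ChIP libraries covered CBX7 in ESC (3 CaPS, 3 WT), RING1B in ESC (3 CaPS, 3 WT), H3K27me3 in ESC (2 CaPS, 2 WT), RING1B in day-8 NPC (2 CaPS, 2 WT), and a RING1B time course with 2 libraries per genotype at ESC, day 6 and day 8. CUT&RUN gave 1 library per genotype for RING1B in ESC (mCaPS, CaPS, WT), RING1B in day-10 EB (CaPS, WT) and H3K27me3 in ESC (CaPS, WT). H3K27me3 at day 8 was a ChIP with 1 column per genotype, which the headers call pooled.

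Values are normalised signal, tags inside the interval per 10 M tags of the library. Library totals ran from 2.01 to 49.13 M tags, so that a count of 3 tags, the limit that an observed 0 allows, stood for 0.611 to 14.9 tags per 10 M. The time course shares its experiment 3 libraries with the ESC and day-8 RING1B tables. These files hold no expression values, so the labelled cell types could not be checked against marker genes. In bulk libraries, fewer cells that carry a protein or mark at a gene and less of it per cell cannot be told apart.

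PRC1 attaches ubiquitin to a core histone through RING1A or RING1B, paired with a PCGF protein. Canonical PRC1 holds a CBX protein and BMI1 or its paralogue PCGF2, whereas variant PRC1 holds RYBP or YAF2 in the place of the CBX protein. PRC2 deposits H3K27me3 through EZH1 or EZH2 together with SUZ12 and EED, and accessory subunits such as PHF19, EPOP and AEBP2 define its subtypes. Polycomb targets in ESC are typically CpG islands, stretches rich in the dinucleotide CG, which KDM2B binds when they are unmethylated.

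The promoters of 4 of the genes are shown, each inside an ESC interval at which CBX7 and RING1B were measured. Of these genes, Bmi1, Phf19 and Bcor had H3K27me3 intervals within the distance limit and Suz12 had none. Each is the 250 bases before the RefSeq start, on the gene's strand, in the build GRCm38.p6, which is mm10, and each CG is in capitals.
Bmi1, chr2:18676768-18677017, plus strand: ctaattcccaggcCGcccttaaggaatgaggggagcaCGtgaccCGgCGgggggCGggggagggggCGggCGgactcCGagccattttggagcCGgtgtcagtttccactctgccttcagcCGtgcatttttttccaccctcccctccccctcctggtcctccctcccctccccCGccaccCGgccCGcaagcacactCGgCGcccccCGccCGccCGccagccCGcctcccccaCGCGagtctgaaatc
Phf19, chr2:34913977-34914226, minus strand: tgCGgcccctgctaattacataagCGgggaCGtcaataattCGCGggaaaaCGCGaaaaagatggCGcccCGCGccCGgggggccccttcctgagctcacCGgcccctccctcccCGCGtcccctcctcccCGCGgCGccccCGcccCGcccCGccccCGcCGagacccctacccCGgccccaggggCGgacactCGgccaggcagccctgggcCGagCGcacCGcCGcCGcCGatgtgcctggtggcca
Bcor, chrX:12160347-12160596, minus strand: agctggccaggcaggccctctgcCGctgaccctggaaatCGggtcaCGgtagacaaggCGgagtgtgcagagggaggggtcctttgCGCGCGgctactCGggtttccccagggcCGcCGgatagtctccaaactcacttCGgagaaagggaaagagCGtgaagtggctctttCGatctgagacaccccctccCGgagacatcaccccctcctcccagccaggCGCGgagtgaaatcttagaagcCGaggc
Suz12, chr11:79992856-79993105, plus strand: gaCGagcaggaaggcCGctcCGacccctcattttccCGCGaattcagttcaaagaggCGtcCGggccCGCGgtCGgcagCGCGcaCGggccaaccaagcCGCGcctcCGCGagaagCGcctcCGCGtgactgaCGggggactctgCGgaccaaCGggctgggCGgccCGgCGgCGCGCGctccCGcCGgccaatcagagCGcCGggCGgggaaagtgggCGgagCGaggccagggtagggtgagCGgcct
The Bmi1 window held 21 CG, a number reached by 16.3% of the 32851 windows in the RefSeq table. The Phf19 window held 31 CG (5.19% of windows hold as many), the Bcor window 17 (23.5%) and the Suz12 window 37 (2.20%), beside a median of 6 over all windows. CG reads the same on both strands, and 92.1% of all windows held at least 1. The table matched 6 of the 9 genes with 12 windows, whose CG counts ran from 1, at an Aebp2 start, to 38. Yaf2, Rybp and Epop had no window in it. The Aebp2 window with 1 CG and another with 14 CG also lay inside ESC CBX7 and RING1B intervals, and are not printed. None of the 4 printed windows lay wholly inside an ESC H3K27me3 interval, and at day 8 the Phf19 window did.

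Bcor had an interval in all 9 tables, Bmi1, Yaf2 and Phf19 in 8, Rybp and Aebp2 in 7, Kdm2b in 6, Suz12 in 5 and Epop in 4. In the ESC tables of CBX7 and RING1B, which list the same 6326 intervals, every gene except Epop was present, with 14 intervals in all. H3K27me3 intervals in ESC were fewer: ChIP had them at Bmi1, Yaf2, Bcor and Phf19, and CUT&RUN had intervals assigned to Yaf2, Bcor and Phf19. At Bmi1, 2 CUT&RUN intervals that the authors' annotation assigns to the neighbours Spag6 and Commd3 covered 32305 of the 33842 bp of the ESC RING1B interval, so Bmi1 was not without the mark by CUT&RUN. At day 8, H3K27me3 intervals were assigned to 6 genes, Bmi1, Bcor, Phf19, Epop, Rybp and Aebp2. An overlap with an ESC H3K27me3 ChIP interval was present for 4 of the 8 ESC RING1B intervals (Bmi1, Bcor, Yaf2, Phf19), against 41.2% of all intervals of that table. A day-8 H3K27me3 interval overlapped 5 of the 8, against 52.9%. These shares were close to the background of their tables.

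The genes differed in how far the ESC intervals reached. Bmi1, a PCGF subunit of canonical PRC1, lay in an interval of 33.8 kb (chr2:18668852-18702693, mm10) with its centre 8754 bp from the start, in the 3' UTR. At day 8 the deposited annotation split that stretch and assigned other intervals in it to the neighbours Spag6 and Commd3, so the Bmi1 value in ESC also counts tags over these. Bcor, which encodes a corepressor of the variant PRC1 with KDM2B, had an interval of 21.3 kb (chrX:12073769-12095093) with its centre in an intron. That centre lay at -3878 bp from an annotated start, which is inside the interval. A second Bcor interval of 12.2 kb (chrX:12148990-12161208) contains the upstream start and its printed promoter. The other genes had narrow intervals. Phf19 had 2.13 kb (chr2:34912758-34914886) across its start, and Yaf2 had 1.69 kb (chr15:93337193-93338885) just upstream of its start. Aebp2 had 1.28 kb (chr6:140622306-140623584) at its promoter. Kdm2b had 1.18 kb (chr5:122987410-122988586) with its centre in an intron and a RefSeq start inside it. Suz12 had 0.914 kb (chr11:79992212-79993125) at its promoter, and Rybp had 0.499 kb (chr6:100288360-100288858), with its centre at -1251 bp. At the edge of the distance limit, Bcor had a day-8 RING1B interval at -9967 bp with a mean of 18.3 tags per 10 M, kept, and a day-8 H3K27me3 interval at 11673 bp with a mean of 8.65, left out.

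Per kb of interval, Bmi1 carried the most CBX7 among the 8 genes in ESC. It averaged 61.0 ± 23.7 tags per 10 M per kb in CaPS ESC and 127 ± 85.0 in WT ESC (SD, n = 3 each). Bcor followed with 37.7 ± 22.6 per kb in CaPS and 75.8 ± 54.3 in WT ESC. Phf19 had 18.2 ± 10.6 per kb in CaPS and 40.1 ± 21.3 in WT ESC, and Yaf2 had 16.3 ± 7.30 in CaPS and 34.2 ± 23.7 in WT ESC. In both genotypes Bmi1 and Bcor led, and neighbours further down, such as Phf19, Yaf2 and Kdm2b, differed by less than their SD. Kdm2b had 19.4 ± 5.87 per kb in CaPS and 27.3 ± 15.9 in WT ESC. Suz12 had 2.91 ± 2.53 in CaPS and 5.17 ± 2.40 in WT ESC, and Rybp had 10.7 ± 10.6 in CaPS and 4.94 ± 5.86 in WT ESC. RING1B was also highest per kb at Bmi1, with 101 ± 47.6 in CaPS and 146 ± 64.4 in WT ESC. The SD takes in experiment 2, whose libraries had the highest CBX7 value of each genotype at Bmi1, Bcor, Phf19, Yaf2, Kdm2b, Rybp and Aebp2.

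**Figure D1:**
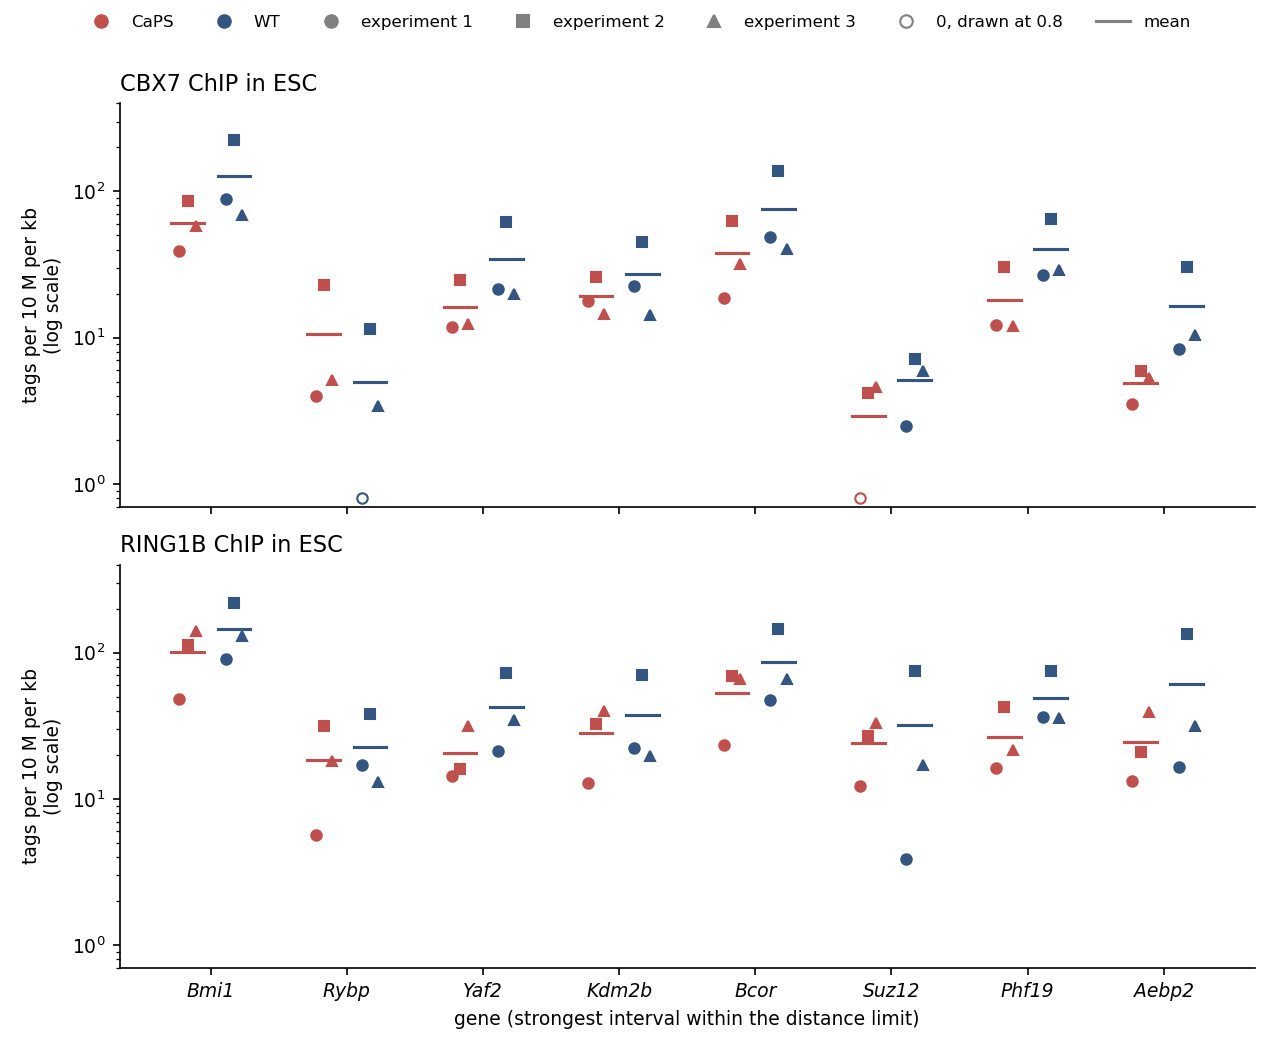
CBX7 and RING1B ChIP signal in ESC at the strongest interval of each gene, in tags per 10 M per kb of interval on a log scale, with CaPS left of WT, 1 point per library (shape gives the experiment) and a line at the mean of 3. Bmi1 and Bcor stand highest in both panels, and the CBX7 values of Suz12 and Rybp reach 0 in 1 library each.

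The ratio of CBX7 to RING1B in the same interval differed among the genes. It is given as log2 of CBX7 + 1 over RING1B + 1 per experiment and is a description, since both assays share the intervals. At Bmi1 it averaged -0.66 ± 0.55 in CaPS and -0.30 ± 0.53 in WT ESC, and at Bcor -0.50 ± 0.48 in CaPS and -0.25 ± 0.40 in WT ESC (SD, n = 3 each). Phf19, Yaf2 and Kdm2b were in the same range. Aebp2 had -2.04 ± 0.58 in CaPS and -1.52 ± 0.59 in WT ESC, and Suz12 had -2.88 ± 0.64 in CaPS and -1.69 ± 1.40 in WT ESC. The mean ratios of Suz12 and Aebp2 were thus low in both genotypes. Some of their WT values were nonetheless within the range of Bmi1, Bcor, Phf19, Yaf2 and Kdm2b over both genotypes. These were -0.47 and -1.39 at Suz12 in experiments 1 and 3, and -0.93 at Aebp2 in experiment 1. The CBX7 values of Suz12 were low in every library. Rybp had -0.76 ± 0.64 in CaPS and -2.10 ± 0.99 in WT ESC, from CBX7 values of a few tags.

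**Figure D2:**
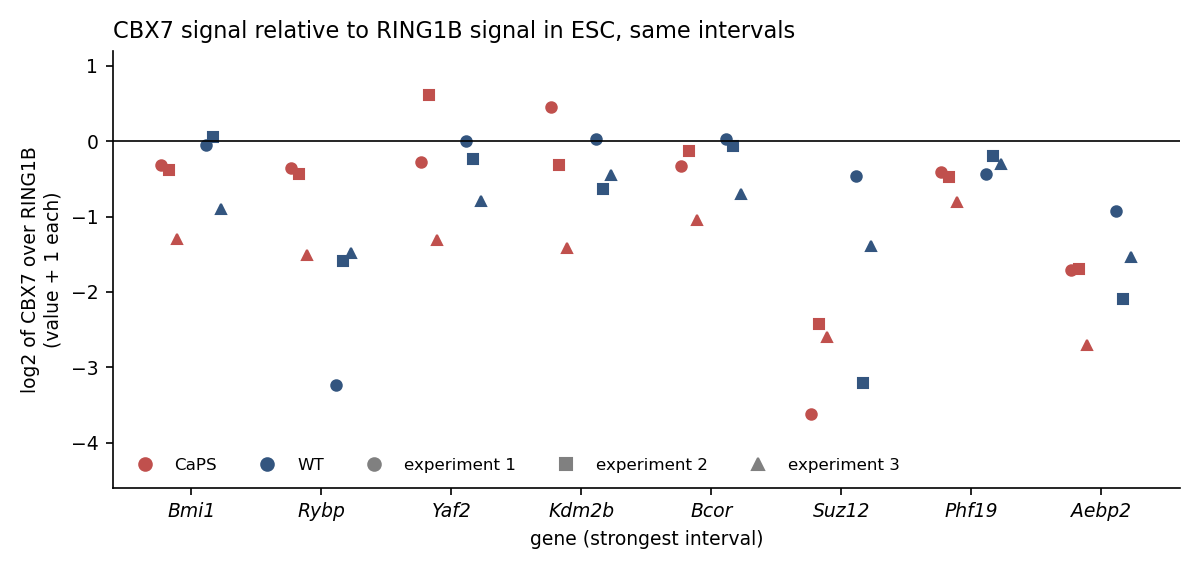
log2 of CBX7 over RING1B signal (tags per 10 M, 1 added to each) in the same ESC interval, by gene, with CaPS left of WT and 1 point per experiment. The means of Suz12 and Aebp2 lie below those of Bmi1, Bcor, Phf19, Yaf2 and Kdm2b in both genotypes. The WT values of Suz12 in experiments 1 and 3 (-0.47 and -1.39) and of Aebp2 in experiment 1 (-0.93) are inside the range of those genes over both genotypes.

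The comparison of CaPS with WT ESC asked whether the changed CBX7 occupies these genes at another level. On the scale of tags per library total, CBX7 was lower in CaPS at 5 of the 8 genes by limma (adjusted p under 0.05), namely Bmi1, Bcor, Yaf2, Phf19 and Aebp2, but with each library scaled to the same sum over the peaks none was called and the signs at Bmi1, Bcor and Yaf2 turned to 0.11, 0.10 and 0.10. That share stands beside 44.3% of all 6326 intervals called lower and a median log2 change of -0.85 over the table, against a median of -0.93 for the 8 genes. The same-sum scaling moved the table median to 0.11. Among all 6326 intervals, 2801 were called lower and 4 higher, and with that scaling 103 lower and 81 higher.

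At Bmi1, CBX7 signal was 1324, 2916 and 1954 tags per 10 M in CaPS ESC of experiments 1, 2 and 3, against 2984, 7615 and 2342 in WT ESC. CaPS was below WT within each experiment, though the 2 sets of values overlapped. The log2 change, on log2(value + 1), was -0.94 (SE 0.36, limma adjusted p = 0.0254), and 0.11 with same-sum scaling. At Bcor the values were 396, 1335 and 681 in CaPS against 1039, 2948 and 859.8 in WT ESC. CaPS was again lower in each experiment with overlap between the groups, least clearly in experiment 3. The change was -0.96 (SE 0.31, limma adjusted p = 0.00604), and 0.10 with same-sum scaling. At the upstream Bcor interval CBX7 signal was 78.6, 278 and 174 in CaPS against 278, 963 and 311 in WT ESC, lower in 3 of 3 experiments. Its change of -1.48 (SE 0.27, limma adjusted p = 1.57e-06) was beyond the chromosome X median of -1.03, and was -0.43 (adjusted p = 0.0541) with same-sum scaling.

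Yaf2, which encodes the paralogue of RYBP, had 19.9, 41.8 and 20.96 tags per 10 M of CBX7 in CaPS and 36.2, 104 and 33.4 in WT ESC, a log2 change of -0.93 (SE 0.31, limma adjusted p = 0.00814) that was 0.10 with same-sum scaling. Phf19, which encodes a PRC2 subunit that binds H3K36 methylation, had 25.9, 64.6 and 25.6 in CaPS against 57.1, 138 and 61.4 in WT ESC. Its within-experiment changes were the most alike of the 5, and each CaPS library was at about the same distance below its WT partner. The change was -1.14 (SE 0.29, limma adjusted p = 0.000471). Aebp2, a PRC2 accessory subunit, had 4.48, 7.60 and 6.82 in CaPS against 10.7, 39.1 and 13.3 in WT ESC, and the groups did not overlap. Its change was -1.39 (SE 0.42, limma adjusted p = 0.00363), beside a median of -1.07 over chromosome 6, the part of which in the result was not tested. The CaPS value of experiment 2 was below the 11.4 tags per 10 M that 3 tags stand for in that library. At the weaker Aebp2 interval nearest to the start, the change was 0.20 (limma adjusted p = 0.831).

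Kdm2b, Suz12 and Rybp did not pass the test. Kdm2b, whose product brings variant PRC1 to CpG islands, had 20.9, 30.4 and 17.0 tags per 10 M of CBX7 in CaPS against 26.7, 53.0 and 16.7 in WT ESC, with a log2 change of -0.36 (limma adjusted p = 0.396) that was 0.66 with same-sum scaling. Suz12, the core PRC2 subunit, had 0, 3.8 and 4.17 in CaPS against 2.28, 6.52 and 5.37 in WT ESC, low in every library. Rybp had 1.99, 11.4 and 2.54 in CaPS against 0, 5.70 and 1.70 in WT ESC. CaPS was higher at Rybp in 3 of 3 experiments, all at low values, with a change of 0.95 (SE 0.71, limma adjusted p = 0.286).

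The 5 calls rested on the pairing of libraries by experiment and in part on single experiments. Without the experiment as a block none of the 8 was called. Phf19 kept its call when any experiment was left out, with adjusted p at most 0.0316. Without experiment 1, Bmi1, Bcor and Yaf2 were no longer called, and without experiment 2 these and Aebp2 (limma adjusted p = 0.0563).

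**Figure D3:**
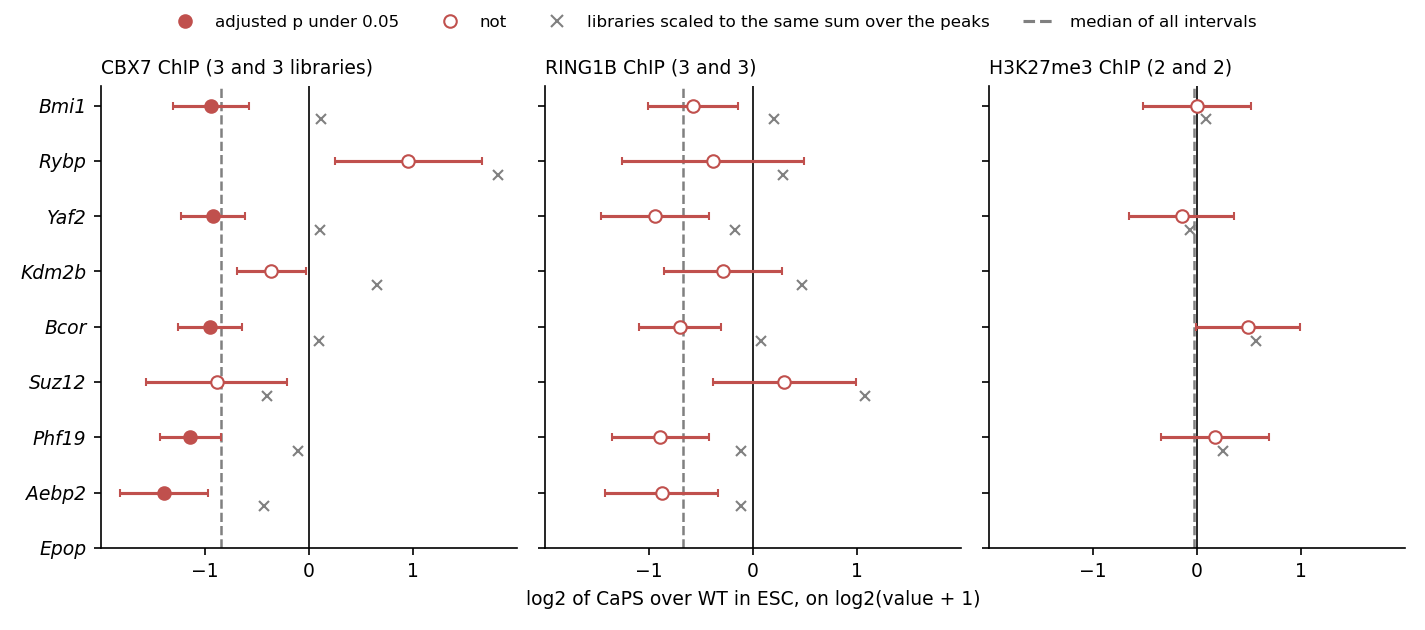
log2 of CaPS over WT in ESC (log2(value + 1) scale) for CBX7, RING1B and H3K27me3 ChIP, with bars of 1 SE; filled points have an adjusted p under 0.05, crosses give the change after scaling libraries to the same sum, and the dashed line is the median of all intervals. The CBX7 points of 5 genes are called and lie near the table median of -0.85, and with same-sum scaling Bmi1, Bcor, Yaf2 and Kdm2b lie above 0.

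RING1B in ESC was not called at any of the 8 genes, where limma called 0.142% of all 6326 intervals (9 lower, 0 higher; 1174 at an unadjusted p under 0.05, and 5 by edgeR). At Bmi1 RING1B signal was 1642, 3814 and 4792 tags per 10 M in CaPS ESC, against 3085, 7340.4 and 4386 in WT ESC. CaPS was lower in experiments 1 and 2 and not in experiment 3, and the log2 change was -0.58 (limma adjusted p = 0.459), or 0.20 with same-sum scaling. Bcor showed the same order, with 499.5, 1467 and 1405 in CaPS against 1017, 3082 and 1402 in WT ESC and a change of -0.70 (limma adjusted p = 0.311), or 0.08 with same-sum scaling. Left without experiment 3, the 1 that differed, both genes were called lower, Bmi1 with a change of -0.93 and Bcor with -1.05 (limma adjusted p = 9.42e-20 and 6.44e-11). These p-values rest on the spread usual at that signal level and do not measure how far experiments agree at these genes. In that setting limma called 1098 of the 6326 intervals lower and 1 higher. The table median there lay between the changes of Bmi1 and Bcor, so neither gene stood apart from the table-wide shift. Phf19 had 34.7, 89.8 and 45.8 in CaPS against 77.6, 158 and 75.6 in WT ESC. It was lower in CaPS within all 3 experiments, with a change of -0.89 (limma adjusted p = 0.278). Yaf2 had a change of -0.94 (limma adjusted p = 0.302) and Aebp2 of -0.87 (limma adjusted p = 0.356), beside a table median of -0.67. The chromosome medians were -0.62 over chromosome 15, which holds Yaf2, and -0.89 over chromosome 6, which holds Aebp2. Suz12 had 11.3, 24.7 and 30.3 in CaPS against 3.53, 68.7 and 15.6 in WT ESC, with the experiments going in both directions.

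H3K27me3 ChIP in ESC covered 4 of the genes and called none of the 9195 intervals (0% by limma, 101 at an unadjusted p under 0.05, 0 by edgeR). Bmi1 had 508 and 791 tags per 10 M in CaPS of experiments 1 and 5, against 452 and 880.2 in WT ESC, with a log2 change of 0.01. Its H3K27me3 interval of 15.9 kb (chr2:18678126-18693979) began downstream of the printed promoter. Yaf2 had 65.0 and 73.4 in CaPS against 53.4 and 109.6 in WT ESC, a change of -0.15. Bcor had 35.02 and 41.9 in CaPS against 24.6 and 29.5 in WT ESC. Both CaPS values of Bcor were above both WT values, yet the change of 0.49 (SE 0.50) did not pass the test, and at the Bcor interval nearest to a start it was -1.10. Phf19 had 13.2 and 12.0 in CaPS against 9.22 and 13.2 in WT ESC, a change of 0.18. The CUT&RUN libraries, 1 per genotype, gave a CaPS to WT ratio of 1.54 at Bcor (95% interval 1.23 to 1.94, exact, counting error only), from 128 tags per 10 M in CaPS against 82.8 in WT ESC. Ratios were 1.31 (0.997 to 1.72) at Phf19 and 0.905 (0.727 to 1.1398) at Yaf2, beside a table median of 1.18. None of the 3 was past 2-fold, where 1.08% of intervals were past it downwards and 4.57% upwards.

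RING1B CUT&RUN in ESC covered all 9 genes and added the mCaPS form, with 1 library per genotype and hence no replicate check. Bmi1 had 638 tags per 10 M in mCaPS, 1220.3 in CaPS and 1373 in WT ESC, with a ratio of mCaPS to WT of 0.465 (95% interval 0.427 to 0.504, exact, counting error only). Bcor had 199 in mCaPS, 306 in CaPS and 419.8 in WT ESC. Its ratios to WT were 0.729 in CaPS and 0.474 in mCaPS, beside chromosome X medians of 0.440 and 0.373. Phf19 had 14.6 in mCaPS, 40.6 in CaPS and 59.7 in WT ESC. At these 3 genes mCaPS was lowest and WT highest on this scale. With libraries scaled to the same sum WT was highest at none of them, since the CaPS to WT ratio was then 1.36 at Bmi1, 1.12 at Bcor and 1.04 at Phf19, and mCaPS was below CaPS at all 3. Rybp had 12.8 in mCaPS, 16.3 in CaPS and 24.6 in WT ESC, and Yaf2 had 15.0 in mCaPS, 17.2 in CaPS and 31.7 in WT ESC. Epop, whose product is a PRC2 accessory subunit of ESC, had 5.73 in mCaPS, 16.8 in CaPS and 12.8 in WT ESC at its strongest interval, which lies upstream of the start. Its CaPS to WT ratio there was 1.31 (0.690 to 2.54), above 1 within an interval that includes 1, and at the weaker Epop interval nearest to the start it was 0.463 (0.123 to 1.16). Epop was the 1 gene of the 9 with CaPS above WT at the strongest interval, and with same-sum scaling there were 5 (Bcor, Bmi1, Epop, Phf19 and Rybp).

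Set against WT, CaPS was past 2-fold lower at 2 of the 9 genes, Aebp2 with a ratio of 0.448 (0.263 to 0.732) and Kdm2b with 0.481 (0.268 to 0.823), where 27.2% of all intervals were and the table median was 0.631. At the Kdm2b interval nearest to a start the ratio was 1.04. For mCaPS against WT the count was 6 of 9, namely Phf19, Epop, Bmi1, Bcor, Yaf2 and Kdm2b, of which the last 4 had ratios of 1.03, 1.06, 1.05 and 1.10 with libraries scaled to the same sum. Aebp2, Rybp and Suz12 were also above 1 with that scaling, 7 of the 9 in all. The background was 51.3% of all intervals, with a median ratio of 0.493. Phf19 had the lowest ratio, 0.244 (0.131 to 0.401). With same-sum scaling neither comparison with WT had a gene past 2-fold. The largest CaPS to WT ratio was then 1.998, at Epop, from 19 tags in CaPS and 24 in WT. Between mCaPS and CaPS, Phf19 at 0.359 (0.184 to 0.626) and Epop at 0.342 (0.103 to 0.822) were past 2-fold lower, beside 13.9% of intervals. The Epop ratio came from 6 tags in mCaPS and 19 in CaPS. With same-sum scaling the mCaPS to CaPS ratio was 0.522 at Phf19 and 0.498 at Epop.

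In day-10 EB, RING1B CUT&RUN covered 7 genes. Bmi1 had 979 tags per 10 M in CaPS and 837 in WT EB, a ratio of 1.17 (1.08 to 1.27), and Bcor had 105 in CaPS and 75.2 in WT EB, a ratio of 1.39 (1.05 to 1.83). CaPS was thus above WT at both, beside a median ratio of 1.12 over the table, 1.09 over chromosome 2 (Bmi1) and 1.24 over chromosome X (Bcor). Yaf2 had 16.7 in CaPS and 6.50 in WT EB and was the 1 gene past 2-fold higher, with a ratio of 2.56 (1.12 to 6.85) from 21 tags in CaPS and 8 in WT, where 15.8% of intervals were past 2-fold higher. Rybp had 27.6 in CaPS and 14.6 in WT EB, and Aebp2, with 26.8 in CaPS and 34.6 in WT EB, was the only gene of the 7 with CaPS below WT.

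At day 8 of neural differentiation H3K27me3 lay at 6 of the genes, with 1 deposited value per genotype. Bmi1 had 1095 tags per 10 M in CaPS NPC and 2005 in WT NPC, a ratio of 0.546 (0.507 to 0.588). Epop, at which no ESC H3K27me3 interval was listed, had 174 in CaPS and 293 in WT NPC, a ratio of 0.594 (0.491 to 0.724). Both ratios were above the table median of 0.469. Phf19 had 139.6 in CaPS and 316 in WT NPC (0.442, 0.365 to 0.538), and Bcor had 71.0 in CaPS and 220.4 in WT NPC (0.322, 0.253 to 0.410). Rybp had 30.4 in CaPS and 137 in WT NPC (0.223, 0.160 to 0.312). The Rybp interval covered 2.19 kb upstream of the gene. Aebp2 had 5.32 in CaPS and 17.9 in WT NPC (0.297, 0.118 to 0.773), from 17 tags in the deeper CaPS and 8 tags in the shallower WT value. The count past 2-fold lower was 4 of 6, beside 54.5% of all intervals. With libraries scaled to the same sum, 1 gene, Rybp at 0.444, was past 2-fold, and Bmi1 and Epop had ratios of 1.09 and 1.18.

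**Figure D4:**
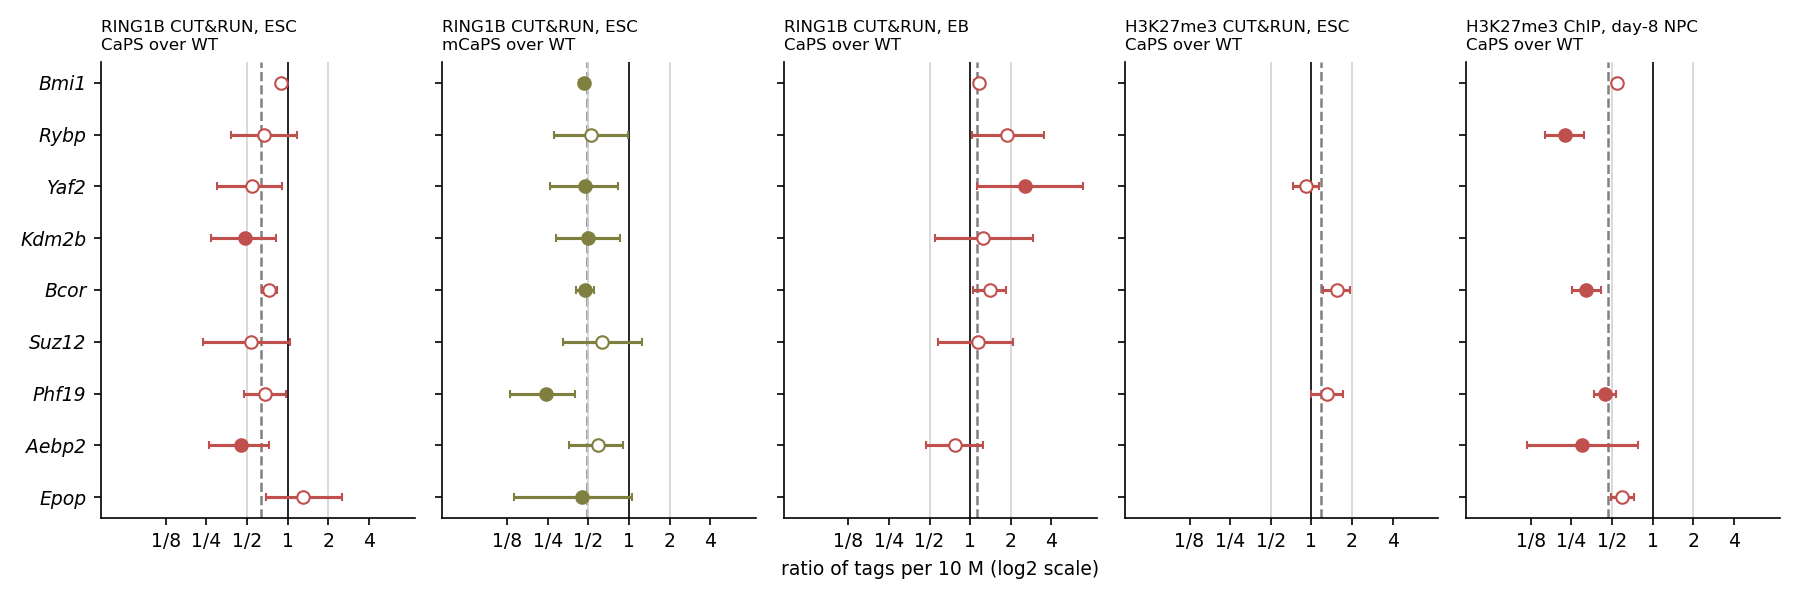
Ratios of tags per 10 M (log2 axis) for the comparisons with 1 library or 1 pooled value per genotype, with exact 95% intervals for counting error; filled points are past 2-fold and the dashed line is the median of all intervals. The day-8 H3K27me3 ratios of Rybp, Bcor, Aebp2 and Phf19 are below 0.5, and with same-sum scaling those of Bmi1 and Epop there, and of 7 of the 9 genes in mCaPS against WT, are above 1 (not drawn).

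RING1B in day-8 NPC, with 2 libraries per genotype, was called at none of 8 genes and at 0% of 5393 intervals (limma, 532 at an unadjusted p under 0.05, 0 by edgeR). With same-sum scaling, limma called 243 of these intervals lower and 192 higher, with a gene of the 8 among them. Bmi1 had 158 and 282 tags per 10 M in CaPS of experiments 4 and 3, against 198 and 235 in WT NPC, over an interval of 3.20 kb upstream of its start, and the groups overlapped. Yaf2 had 3.15 and 4.54 in CaPS against 32.5 and 5.80 in WT NPC, a log2 change of -1.65 (limma adjusted p = 0.479), and at its interval nearest to the start the change was 1.02. Rybp had 0 and 4.54 in CaPS against 14.3 and 9.19 in WT NPC, in an intron 8726 bp from its start. Both CaPS values of Rybp were below both WT values, with a change of -2.41 (SE 0.86, limma adjusted p = 0.459). Kdm2b had 26.3 and 16.0 in CaPS against 6.69 and 11.1 in WT NPC, and its change of 1.16 (limma adjusted p = 0.61) went the other way. Epop had 25.7 and 35.3 in CaPS against 76.5 and 21.3 in WT NPC, and Phf19 had 13.7 and 10.3 in CaPS against 15.3 and 3.87 in WT NPC. The changes of Epop (-0.42) and Phf19 (0.53) lay inside the spread between experiments.

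The time course followed RING1B from ESC to day 6 and day 8 in both genotypes, in 1 table with experiments 3 and 5. The day-6 and day-8 comparisons of a genotype share their ESC libraries, so their values stand side by side and are not independent. In CaPS, Bcor had 1542 and 1639 tags per 10 M in ESC of experiments 3 and 5, 425 and 1034 at day 6, and 289.7 and 465 at day 8. In WT it had 1554 and 1470.2 in ESC, 508 and 635 at day 6, and 218 and 405 at day 8. Every differentiated library of both genotypes was below every ESC library. Over chromosome X the median log2 change was -0.34 at day 6 and -0.78 at day 8 in CaPS. In WT that median was -0.74 at day 6 and -1.01 at day 8. By limma Bcor fell at day 6 in CaPS (log2 change -1.26, adjusted p = 0.0321) and in WT (-1.41, SE 0.40, adjusted p = 0.00589). At day 8 the log2 change was -2.11 in CaPS (adjusted p = 8.13e-06) and -2.34 in WT (adjusted p = 2.35e-07). These falls kept their direction and their calls with same-sum scaling, and the day-6 calls were lost without the experiment as a block (adjusted p = 0.161 in CaPS and 0.0661 in WT) and in CaPS by edgeR (adjusted p = 0.0598).

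Yaf2 had 46.6 and 55.8 tags per 10 M in CaPS ESC, 15.0 and 51.6 at day 6, and 14.0 and 13.7 at day 8. In WT it had 50.3 and 36.7 in ESC, 12.5 and 42.4 at day 6, and 3.39 and 15.3 at day 8. The experiments disagreed at day 6 and were both low at day 8 in each genotype. The day-8 log2 change was -1.81 in CaPS (limma adjusted p = 0.00192, or 0.116 with same-sum scaling) and -2.38 in WT (SE 0.47, limma adjusted p = 8.77e-06). Phf19 had 49.9 and 49.6 in CaPS ESC, 28.3 and 51.6 at day 6 and 26.8 and 48.0 at day 8, and in WT 84.4 and 56.8 in ESC, 29.4 and 34.9 at day 6 and 17.8 and 24.99 at day 8. WT libraries were lower at each later stage, whereas CaPS of experiment 5 stayed at its ESC level. Phf19 fell at day 8 in WT (-1.67, SE 0.41, limma adjusted p = 0.000525, or -0.56 and 0.319 with same-sum scaling), and the CaPS change was -0.46 (adjusted p = 0.498), or 0.23 with same-sum scaling. The difference between the genotypes' changes, 1.21 (SE 0.58), did not pass the test (limma adjusted p = 0.609).

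Aebp2 fell at day 8 in WT, to 24.1 and 24.2 tags per 10 M, against 43.8 and 80.7 in WT ESC (-1.27, SE 0.41, limma adjusted p = 0.0117). That call was lost with same-sum scaling (-0.15, adjusted p = 0.839) and without the experiment as a block (adjusted p = 0.0828). In CaPS it had 23.7 and 41.1 at day 8 against 58.3 and 68.2 in ESC, a change of -0.99 (adjusted p = 0.0785). Both genotypes had every day-8 library below every ESC library. Bmi1 did not pass the test at day 8. It had 4825 and 4935 in CaPS ESC, 3462 and 8682 at day 6 and 3907 and 7458 at day 8, and in WT 4418 and 4649 in ESC, 3722 and 3625 at day 6 and 2412 and 4338 at day 8. The day-8 change was 0.15 in CaPS (limma adjusted p = 0.913) and -0.49 in WT (adjusted p = 0.642), which with same-sum scaling was 0.85 in CaPS and 0.66 in WT, both then called (limma adjusted p = 1.49e-06 in CaPS and 0.000238 in WT).

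Epop went the other way. Its interval here had its centre 2668 bp downstream of the start, at the annotated transcription end. The upstream interval that gave the CUT&RUN value of Epop does not overlap it. Epop had 38.3 and 39.3 tags per 10 M in CaPS ESC, 63.7 and 119.8 at day 6, and 58.8 and 71.5 at day 8. In WT it had 24.7 and 33.0 in ESC, 45.5 and 77.2 at day 6, and 37.3 and 42.7 at day 8. All later libraries of a genotype were above both of its ESC libraries. Epop rose at day 6 in CaPS (1.15, SE 0.39, limma adjusted p = 0.0459), a call lost without the block (adjusted p = 0.196) and by edgeR (adjusted p = 0.0711). The other Epop changes were 0.73 at day 8 in CaPS (adjusted p = 0.207), 1.03 at day 6 in WT (adjusted p = 0.0523) and 0.47 at day 8 in WT (adjusted p = 0.434). With same-sum scaling all 4 were called higher, with changes from 1.42 to 1.88.

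Rybp had 19.8 and 41.3 tags per 10 M in CaPS ESC, 19.0 and 18.6 at day 6 and 13.8 and 18.6 at day 8. In WT it had 12.4 and 16.5 in ESC, 19.6 and 0 at day 6 and 8.89 and 16.9 at day 8. The WT day-6 library of experiment 5 held 2.01 M tags, so that its 0 allows up to 14.9 tags per 10 M. Rybp was called lower at day 6 in WT (-1.75, limma adjusted p = 0.0193), whereas experiment 3 by itself gave 0.62 and edgeR 0.09. Kdm2b had 42.5 and 74.3 at day 6 in CaPS against 25.9 and 7.47 in WT, with CaPS above WT in both experiments. Between genotypes at day 6, limma called Kdm2b (1.92, SE 0.43, adjusted p = 0.00121) and Rybp (2.13, adjusted p = 0.0127) higher in CaPS. That was 2 of 9 genes beside 3.66% of intervals called higher and a table median of 0.41. The WT values of experiment 5 at both genes were under the 14.9 tags per 10 M that 3 tags stand for in that library. Within experiment 3 the changes were 0.69 at Kdm2b and -0.04 at Rybp, and edgeR called neither gene. Suz12 was not called at any stage, with 17.6 and 35.2 in CaPS and 13.1 and 27.4 in WT at day 8, against 32.8 and 33.1 in CaPS ESC and 16.1 and 71.5 in WT ESC.

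**Figure D5:**
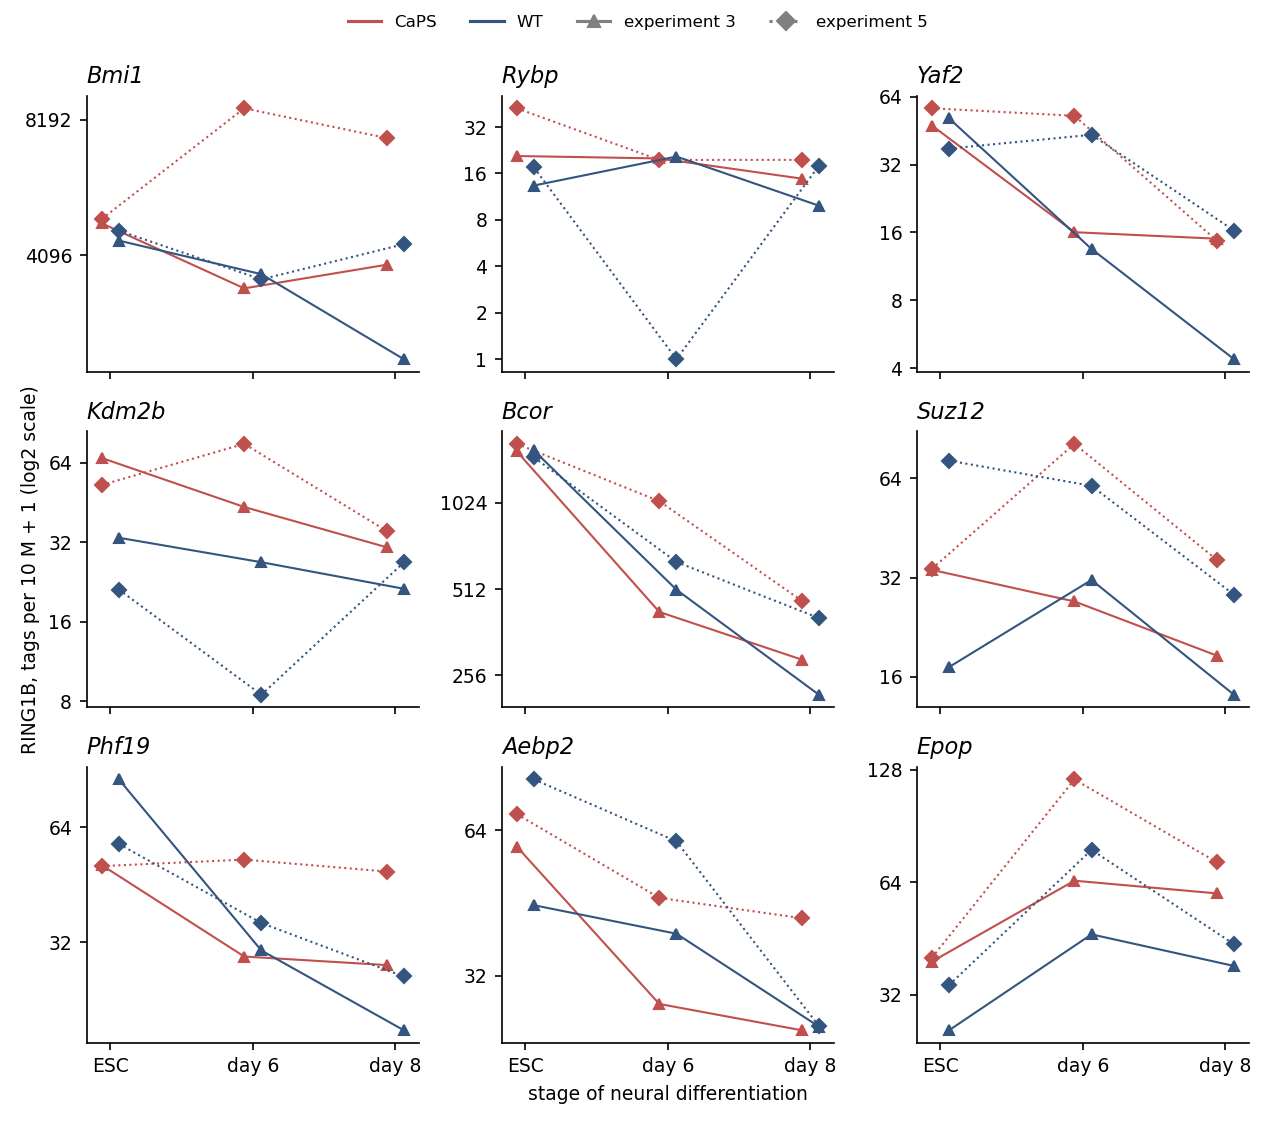
RING1B ChIP signal (tags per 10 M + 1, log2 axis with its own range per gene) at ESC, day 6 and day 8 for the 9 genes, with CaPS left of WT at each stage and 1 line per experiment. Bcor drops in all 4 courses, Epop lies above its ESC level at both later stages, and the WT course of experiment 5 reaches 0 at Rybp on day 6.

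Over the 9 genes, limma called 2 lower (Bcor, Rybp) and 0 higher at day 6 in WT, beside 14.6% of intervals lower and 1.61% higher. At day 8 in WT it called 4 lower (Bcor, Yaf2, Phf19, Aebp2) and 0 higher, beside 20.9% lower and 1.73% higher. In CaPS, 1 was lower (Bcor) and 1 higher (Epop) at day 6, beside 5.06% lower and 2.45% higher, and 2 were lower (Bcor, Yaf2) and 0 higher at day 8, beside 14.1% lower and 1.63% higher. Table medians were -0.16 at day 6 and -0.48 at day 8 in CaPS, and -0.47 and -0.61 in WT. With same-sum scaling, intervals called lower and higher over the table were 496 and 842 at day 6 and 810 and 766 at day 8 in CaPS, and 605 and 1145 at day 6 and 857 and 1351 at day 8 in WT. On the scale of tags per library total they were 763 and 369 and 2134 and 246 in CaPS, and 2209 and 243 and 3147 and 261 in WT. For none of the 9 genes did the difference between the genotypes in the change from ESC pass the test, at day 8 (limma, 0.272% of intervals called, 1191 at an unadjusted p under 0.05, 15 lower and 17 higher by edgeR) or at day 6 (0.371% called, 2022 at an unadjusted p under 0.05, 5 by edgeR). For Bcor the difference of the day-8 changes was 0.23 (SE 0.57), or -0.21 with same-sum scaling.

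Other genes of the Polycomb complexes came from a list of 45, of which 36 are not among the 9. In the CBX7 comparison in ESC, 10 of the 36 had an interval and 4 were called lower in CaPS, beside 44.3% of all intervals, and in the RING1B comparison 0 of 10 were called, beside 0.142%. In the time course 17 of the 36 had an interval. At day 6, 3 of them were called lower and 2 higher in CaPS (5.06% and 2.45% of all intervals), and 5 lower and 2 higher in WT (14.6% and 1.61%). At day 8, 4 were lower and 2 higher in CaPS (14.1% and 1.63%), and 4 lower and 2 higher in WT (20.9% and 1.73%). For day-8 H3K27me3, 6 of 9 were past 2-fold lower in CaPS, beside 54.5% of intervals. The shares for CBX7 and for day-8 H3K27me3 were near their background.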

How the data were processed

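Tags per interval come from the authors' deposited peak tables, whose values are normalised signal scaled to 10 M tags per library, per the file headers. Tools listed in the submitters' processing notes are HOMER 4.10.4, Bowtie2 2.3.4.3, cutadapt 1.14 and SAMtools 1.9, and builds dm6 and mm10. Drosophila chromatin was spiked in, per the labels' protocols, and no source used here says whether the totals take it into account. Per the series design text, peaks were called over input (ChIP) or an IgG control (CUT&RUN), and comparisons joined experiments performed at the same time, which the number in a sample's title marks. In the day-8 H3K27me3 table the deposited signal columns are headed as pooled. Tables were normalised separately, so each was tested on its own.

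Multiplying by the library total gave whole read ends (0.5 tag) for 100% of values, within a tolerance of 0.1. Since the unit is signal, log2(value + 1) was tested with limma 3.58.1 (empirical Bayes with trend, R 4.3.3) over the whole table, with the experiment as a block, Benjamini-Hochberg adjustment and a threshold of 0.05. That scale understates changes at weak intervals. The plan had foreseen edgeR for raw counts; edgeR 4.0.16 on recovered read ends was an alternative. limma's prior degrees of freedom were infinite, so a p-value rests on the spread usual at that signal level and not on an interval's own libraries. Nothing in the labels ties libraries of a group to separate cultures, so this spread may be technical.

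Deviations from the group means correlated between libraries of the same number at 0.043 to 0.303 for CBX7, -0.020 to 0.229 for RING1B in ESC, 0.094 for H3K27me3, 0.253 for day-8 RING1B and 0.065 to 0.215 in the time course; the pairing rests on the design text. With 1 library per group, ratios carry exact 95% intervals (conditional binomial, counting error only) and are named when past 2-fold. The 9 genes, the list of 45 Polycomb genes and the tests were chosen with earlier results of these data known. Every gene of the 9 with an interval is named. 2 columns of per-sample values matched no sample and were not used, nor was 1 of the 10 tables. The tests were also run on simulated data with no experiment effect and no table-wide shift. Such data cannot check how the calls depend on the block or the scaling. Python 3.11.15 was used for tables, and promoter sequences are from RefSeq (GRCm38.p6).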

Additional observations from a re-analysis of the deposited data

How the results depend on the processing

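Counts of called genes moved most with scaling and with the experiment block. Without the block, the CBX7 count in ESC went to 0 (5 with it), the day-6 counts against ESC to 0 in CaPS and 0 in WT (2 each with it), and the day-6 count of CaPS against WT to 1 (2 with it); the day-8 counts stayed within 1.5 times. With libraries scaled to the same sum, the counts were 0 for CBX7, 1 for day-8 RING1B (0 as deposited), 4 for WT day 6, 1 for day 6 between genotypes, 0 for CUT&RUN of CaPS (2) and 0 of mCaPS (6) against WT, 1 for mCaPS against CaPS (2) and 1 for day-8 H3K27me3 (4). For day-8 RING1B, that scaling called 243 intervals lower and 192 higher of 5393. Leaving out 1 experiment gave 1 to 5 genes for CBX7 (2 without experiment 1, 1 without experiment 2) and 0 to 2 for RING1B in ESC. By edgeR the day-6 counts were 0 in CaPS and 0 between genotypes. The day-6 count between genotypes was 1 with a pseudocount of 5, 1 with intervals of a mean under 20 left out and 1 with the interval nearest to the start; that filter also gave 1 for mCaPS against CaPS and 0 (1 unfiltered) for EB.

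Signs that turned with same-sum scaling were those of CBX7 at Bmi1 (0.11), Bcor (0.10), Yaf2 (0.10) and Kdm2b (0.66), of RING1B in ESC at Bmi1 (0.20) and Bcor (0.0819), of WT day 8 at Bmi1 (0.66), of CaPS day 8 at Phf19 (0.23), of the difference of day-8 changes at Bcor (-0.21), the mCaPS to WT CUT&RUN ratios at Bmi1 (1.03), Bcor (1.06), Yaf2 (1.05), Kdm2b (1.10), Aebp2 (1.31), Suz12 (1.41) and Rybp (1.16), the CaPS to WT ones at Bmi1 (1.36), Bcor (1.12), Phf19 (1.04) and Rybp (1.01), the mCaPS to CaPS ones at Yaf2 (1.27) and Rybp (1.141), and the day-8 H3K27me3 ratios at Bmi1 (1.09) and Epop (1.18). With the interval nearest to the start they turned for CBX7 at Aebp2 (0.20), H3K27me3 at Bcor (-1.10), day-8 RING1B at Yaf2 (1.02) the CaPS to WT CUT&RUN ratio at Kdm2b (1.04) and Epop (0.463), and the mCaPS to CaPS ratio at Kdm2b (0.735). Rybp turned by edgeR at day 6 in WT (0.0906) and in the difference of day-6 changes (-0.60, against 1.17 by limma), and its single-experiment values were -4.13 to 0.62 at day 6 in WT and -0.0412 to 4.29 between genotypes, turning without experiment 5. For limma, the values checked for single genes were those of the changes given in the text. Among these and the ratios, 303 kept their direction, and their call where a test was possible. Another 21 were classed as reversed in direction, and 11 turned within their own spread or counting interval. Where leaving out an experiment left a single experiment, an uncalled change falls within its own spread whatever the values. Such values were counted with those that kept their direction or turned within their spread, and are no check of robustness. A further 34 lost the call and 13 gained it. In addition, 17 ratios moved beyond their counting interval, 9 of them turning. The cause of these changes was not tested. Depth limits Suz12, Rybp and Aebp2 most, whose CBX7 values rest on few tags.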
